A study of Mus musculus with 12 samples.

Results

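The 2 main metallothionein genes and 6 zinc transporter genes were examined in whole liver RNA of mice given carbon tetrachloride (CCl4) or its vehicle. The 8 genes, Mt1, Mt2, Slc30a1, Slc30a10, Slc39a4, Slc39a5, Slc39a8 and Slc39a14, were chosen by name for their part in metal handling, out of 36528 gene identifiers in the count table, and all 8 were among the 16032 genes with enough counts to be tested. Of the 12 mice, 6 had CCl4, a solvent that hepatocytes convert to a toxic radical, and 6 had corn oil alone, each injected into the peritoneum 3 times per week for 6 weeks. Strain, sex, age and the time from the last injection to sampling are not given in the labels used here. Each liver gave 1 library of total RNA, so that fewer cells of a type and less RNA per cell cannot be told apart. Each library was taken as 1 mouse, from the n of 6 that the series gives each group, and p-values measure the spread between these livers. Values are CPM, counts relative to the library total after scaling between libraries.

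Metallothioneins are small proteins rich in cysteine that bind zinc, copper and cadmium, and the liver holds much of the body's supply of them. Their genes are switched on by the zinc-sensing factor MTF1, which binds metal response elements, and also respond to glucocorticoids and to interleukin-6 during inflammation. Zinc leaves the cytosol through SLC30 proteins, also called ZnT, and enters it through SLC39 proteins, also called ZIP. Some carry other metals: SLC30A10 exports manganese, and SLC39A8 and SLC39A14 take up manganese, iron and zinc.

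The promoters of Mt1, Mt2 and Slc30a10 are shown for 2 reasons. In windows of 300 bases they held the most copies of the metal response element core among the genes examined that had a promoter entry. Also, Mt1 and Mt2 moved together from liver to liver while Slc30a10 fell. In the 250 bases before the start Mt1 held 1 copy, as did Slc30a1. Each sequence is the 250 bases before a RefSeq transcript start in GRCm38.p6, on the plus strand, with matches to TGCACNC or TGCGCNC on either strand in capitals. They lie at chr8:94178839-94179088 for Mt1, chr8:94172368-94172617 for Mt2 and chr1:185454598-185454847 for Slc30a10.
Mt1: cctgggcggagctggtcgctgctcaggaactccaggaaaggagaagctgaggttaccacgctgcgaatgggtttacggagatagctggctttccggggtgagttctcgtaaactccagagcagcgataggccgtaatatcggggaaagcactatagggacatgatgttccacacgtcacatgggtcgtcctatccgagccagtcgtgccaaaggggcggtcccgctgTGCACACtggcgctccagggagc
Mt2: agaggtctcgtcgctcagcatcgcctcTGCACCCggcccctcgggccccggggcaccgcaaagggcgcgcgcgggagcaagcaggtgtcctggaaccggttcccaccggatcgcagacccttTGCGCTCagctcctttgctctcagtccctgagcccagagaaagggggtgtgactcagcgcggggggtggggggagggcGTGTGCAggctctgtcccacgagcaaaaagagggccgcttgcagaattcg
Slc30a10: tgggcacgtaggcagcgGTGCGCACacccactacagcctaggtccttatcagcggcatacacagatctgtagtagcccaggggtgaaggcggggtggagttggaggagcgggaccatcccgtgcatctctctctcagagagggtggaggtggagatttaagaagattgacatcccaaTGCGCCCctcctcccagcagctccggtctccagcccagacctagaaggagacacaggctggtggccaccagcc
In windows of 300 bases, which add the first 50 bases after the start, Mt1 had 3 matches, Mt2 had 4 and Slc30a10 had 3, of which 2 overlapped each other on opposite strands. At least 1 match was found in 25.7% of 32817 such windows, at least 3 in 1.97% and at least 4 in 0.518%. Slc30a1, a known MTF1 target, had 2 matches, a number reached by 7.12% of windows. Slc39a5 and Slc39a8 have 2 windows each, and in both genes 1 window had a single match and the other none. The Mt1 window is placed on a start at 94179089, and other Mt1 starts are annotated on both sides of it. The RefSeq gene begins at 94178883, within the printed stretch, and GENCODE M21 has starts at 94179211 and 94179241. For Mt2, GENCODE M21 has starts at 94172664 and 94172860, which lie after the printed stretch. The bases just before these later starts of Mt1 and Mt2 are therefore not all printed. Which start is used in these livers was not tested. Promoter entries matched 6 of the 8 genes. A match is a run of letters, not a measured binding site.

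Of the 8 genes, Slc39a5 rose and Slc30a10 fell after CCl4, and the other 6 did not pass the test. By edgeR's quasi-likelihood test with Benjamini-Hochberg adjustment over all genes, 39.0% of the tested genes passed an adjusted p of 0.05. Rises made up 20.6% of the tested genes and falls 18.4%. The 2 of 8 did not exceed the share of all genes, and 8 genes are too few to read a lower count. The median log2 fold change was -0.10 over the 8 genes and 0.01 over all tested genes. Slc30a10 was the 1 gene of the 8 whose groups did not overlap, a state found in 20% of tested genes, with CCl4 lower in 8.03% and higher in 12%. Per kilobase of transcript, Mt1 had the highest mean level of the 8 genes in oil at 533 ± 799 CPM per kilobase, followed by Mt2 at 291 ± 292, Slc39a14 at 104 ± 38.7 and Slc39a4 at 29.9 ± 5.73 (SD, n = 6 each). Slc30a10 (14.0 ± 1.43), Slc39a8 (10.4 ± 1.69) and Slc30a1 (9.65 ± 1.48) were lower, and Slc39a5 was lowest at 0.578 ± 0.136 CPM per kilobase. The spread between oil livers covered the difference between Mt1 and Mt2, and also that between Slc39a8 and Slc30a1.

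**Figure D1:**
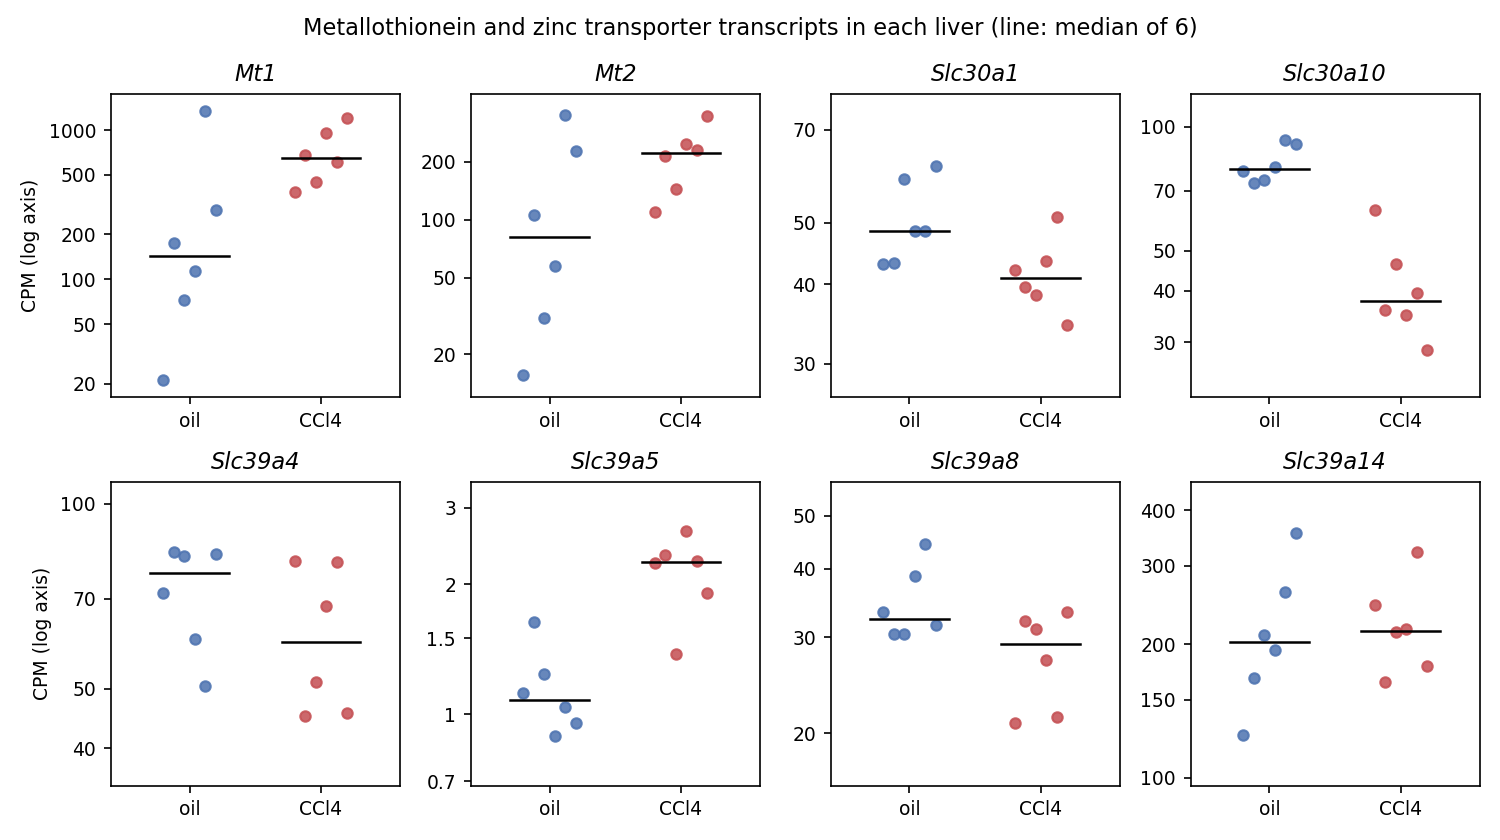
Level of each of the 8 genes in every liver (vertical log axis, CPM; 6 oil livers in blue and 6 CCl4 livers in red; line, group median). Slc30a10 is the panel without overlap between the groups, and Mt1 and Mt2 span a far wider range in oil than in CCl4.

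Mt1 and Mt2 varied so widely among the oil livers that their higher group means in CCl4 did not pass the test. Mt1 (gene ID 17748, chromosome 8, 94178883 to 94180327) encodes metallothionein 1. It ranged from 21.1 CPM to 1352 CPM in oil, with a median of 144 CPM, and from 384 to 1205 CPM in CCl4, with a median of 647 CPM. In 5 of the 6 oil livers Mt1 lay below every CCl4 liver, between 21.1 and 291 CPM, while oil replicate 5 lay above all of them. The means were 338 ± 505 CPM in oil and 714 ± 313 CPM in CCl4 (SD, n = 6 each), and the log2 fold change was 1.08 ± 0.73 (SE; adjusted p = 0.255). The highest oil liver had 64.1 times the Mt1 level of the lowest, against 3.14 times among CCl4 livers.

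Mt2 (gene ID 17750, chromosome 8, 94172618 to 94173567) encodes metallothionein 2 and lies next to Mt1. It was at 15.5 CPM in the lowest oil liver, 81.3 CPM at the median and 348 CPM in the highest. In CCl4 the lowest, median and highest values were 110, 222 and 346 CPM. Oil replicates 5 and 6, at 348 and 228 CPM, reached the range of the CCl4 livers and the other 4 oil livers stayed below it. The log2 fold change of Mt2 was 0.72 ± 0.59 (SE; adjusted p = 0.352), the oil mean being 131 ± 131 CPM and the CCl4 mean 215 ± 82.8 CPM (SD, n = 6).

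The result for Mt1 turned on oil replicate 5. Without that library the log2 fold change of Mt1 was 2.40 (edgeR adjusted p = 0.00319), and that of Mt2 was 1.29 (adjusted p = 0.0716). With limma-voom, which averages log values and weights libraries by quality, the log2 fold changes were 2.73 for Mt1 (adjusted p = 0.00307) and 1.82 for Mt2 (adjusted p = 0.0181). Oil replicate 5 was also the oil library with the largest share of counts in transcripts under 1000 bases other than the genes examined, at 11.5% against 8.10% to 9.80% in the other oil libraries. The median transcript lengths of Mt1 and Mt2 are 633 and 449.5 bases, and the 1170 tested genes under 1000 bases had a median log2 fold change of 0.39. With the trend in transcript length removed from each library the log2 fold changes were 0.81 for Mt1 and 0.26 for Mt2 (adjusted p = 0.323 and 0.733); the part of library composition in the levels of oil replicate 5 was not tested.

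Taken as a share of all counts, Mt1 and Mt2 together made up 0.0422 ± 0.0560% of counts in oil and 0.0994 ± 0.0361% in CCl4 (SD, n = 6 each). The lowest share was 0.00361% in oil replicate 1 (95% Wilson interval 0.00344% to 0.00378%, counting error only), and the highest were 0.158% in CCl4 replicate 6 and 0.152% in oil replicate 5. On the log2 scale, where the single high oil liver weighs less, the mean share was 2.14 higher in CCl4 (exact two-sided permutation test, p = 0.0260, adjusted p = 0.0260 over 2 measures). This p was 0.0519 without CCl4 replicate 6 or without any 1 of oil replicates 1, 2, 3 and 4. A share of all counts has no scaling between libraries. With library totals alone the median log2 fold change of all tested genes was 0.27, so that part of the 2.14 can come from the lack of scaling. The permutation test was not run on scaled values.

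The balance of the 2 genes differed between the groups. There were 0.551 ± 0.198 counts of Mt2 per count of Mt1 in oil and 0.307 ± 0.0399 in CCl4 (SD, n = 6 each; log2 difference of -0.76, exact two-sided permutation test, p = 0.0195, adjusted p = 0.0260 over 2 measures). The ratio ran from 0.423 to 0.783 in 5 oil livers and was 0.257 in oil replicate 5, while the CCl4 livers lay between 0.258 and 0.374. Oil replicate 5, the liver with most Mt1, thus also had the ratio of a CCl4 liver. A ratio within a library does not depend on scaling and shows unequal change of the 2 genes, not which of them changed. The longest stretch shared by transcripts of Mt1 and Mt2 in GENCODE M21 was 20 bases.

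The other metallothionein genes were close to absent. Mt3, best known from brain, had 3 counts over the 6 oil livers and 35 over the 6 CCl4 livers, with 0 in 4 oil livers and in CCl4 replicate 4. Mt4, best known from stratified epithelium, had 0 counts in every oil liver and 36 over the CCl4 livers, of which 22 came from CCl4 replicate 6. Relative to library totals, without scaling between libraries, Mt4 in CCl4 was 10.1-fold above a floor of 3 counts over the oil group. It was 4.59-fold above that floor without CCl4 replicate 6, which leaves 14 counts (a setting chosen after seeing the data). The scaling factors were 0.992 to 1.21 in CCl4 and 0.883 to 0.985 in oil, so that scaled ratios would be lower. The error of these few counts is not included. Neither gene had enough counts to be tested.

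Fgg, an acute phase gene, varied most like the metallothioneins. Among the 8194 protein-coding genes whose mean log2 CPM reached 3, the 5 most like the mean of Mt1 and Mt2 over the 12 livers, after the mean of each group was removed, were Fgg (Pearson's r = 0.98), Ang (0.96), Nfkbib (0.94), Ctsc (0.94) and Fgl1 (0.93). These values describe a search over many genes in livers that share depth and library composition, and have no test. Fgg encodes the gamma chain of fibrinogen, Ang the secreted ribonuclease angiogenin, and Nfkbib an inhibitor of NF-kappaB. Fgg was at 3056 CPM in oil replicate 1, the liver with least metallothionein, and at 11673 CPM in oil replicate 5, the liver with most. In CCl4 it lay between 5040 and 7016 CPM, highest in replicate 6, which also had the highest Mt1 and Mt2 of that group.

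**Figure D2:**
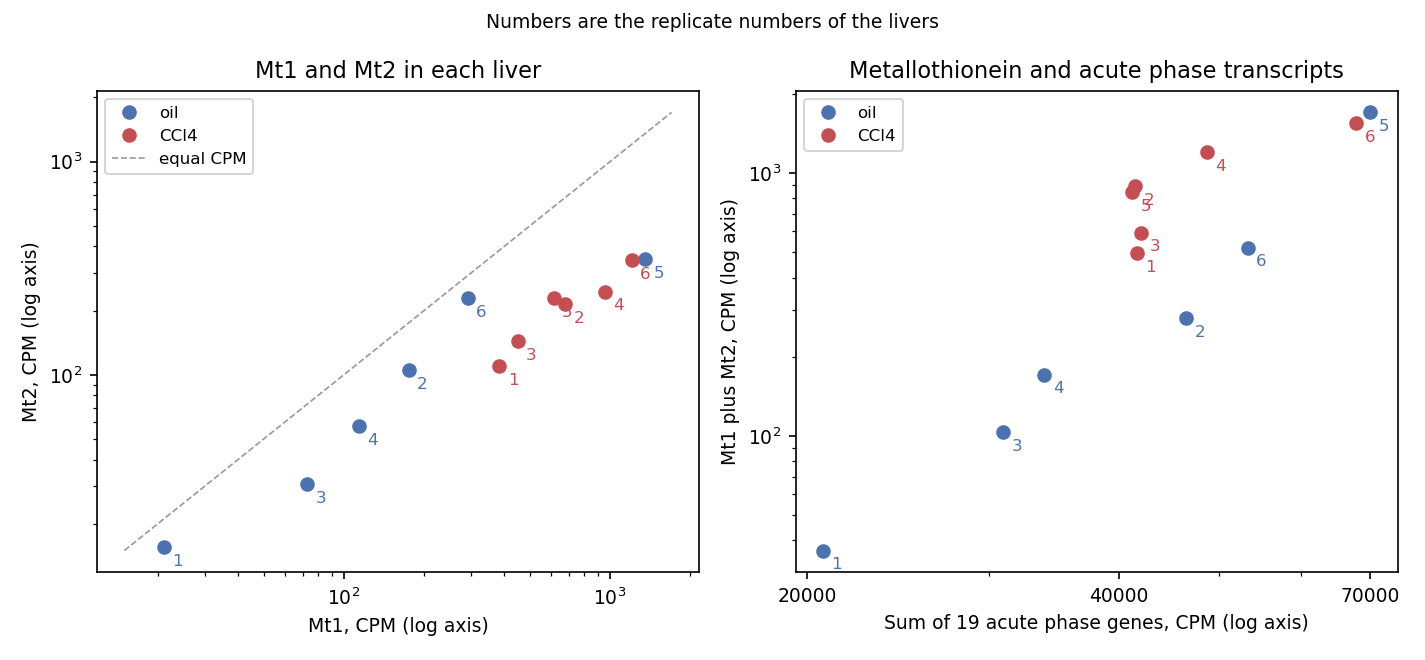
Left, Mt2 against Mt1 in each liver (CPM, log axes; dashed line, equal CPM). Right, Mt1 plus Mt2 against the sum of 19 acute phase and interleukin-6 pathway genes (CPM, log axes). The oil livers, numbered by replicate, stand in the same order on both axes of the right plot, from 20740 CPM in replicate 1 to 70035 CPM in replicate 5. Fgg is part of this sum and alone gives the same order.

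Of the 19 listed interleukin-6 pathway and acute phase genes 2 rose, 1 fell and 16 did not pass, so that 3 of 19 were called where 39.0% of all tested genes were. Their median log2 fold change was -0.11. Lcn2, which encodes the iron-trapping protein lipocalin 2, rose 5.68-fold (adjusted p = 0.00839), Hpx, the haem carrier hemopexin, rose 1.93-fold (adjusted p = 0.0322), and Saa4 fell 1.78-fold (adjusted p = 0.0186). Summed over the list, the oil livers ran from 20740 to 70035 CPM and the CCl4 livers from 41252 to 67854 CPM. Most of this sum in oil came from Hpx, Fga, Fgb, Fgg and Hp, with means of 5902 CPM (Hp) to 8020 CPM (Hpx). In oil the livers ranked by this sum as they did by Mt1 plus Mt2, with replicates 1, 3, 4, 2, 6 and 5 in rising order. Fgg, named above from the search for likeness, is part of the sum and alone gave the same order. This order did not hold among the CCl4 livers, where replicates 1, 2, 3 and 5 had sums between 41252 and 42075 CPM although their Mt1 plus Mt2 ran from 494 to 893 CPM.

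Slc30a10 fell after CCl4. It encodes a manganese exporter of the cell surface, which in the liver passes manganese to bile (gene ID 226781, chromosome 1, 185454848 to 185468762). The oil livers lay between 73.1 and 92.7 CPM with a median of 79.0 CPM, and the CCl4 livers between 28.7 and 62.7 CPM with a median of 37.8 CPM. Every CCl4 liver was below every oil liver, with CCl4 replicate 1 nearest to them. The mean went from 81.5 ± 8.35 to 41.4 ± 12 CPM (SD, n = 6 each), a 1.97-fold fall (log2 fold change -0.98 ± 0.17 SE, adjusted p = 0.000433). Slc30a10 passed in all alternative settings tried, with log2 fold changes of -1.15 to -0.71, and also against a change of 1.5-fold (adjusted p = 0.0313). Pericentral hepatocyte markers fell in 7 of 8 genes, where 18.4% of all tested genes fell and 20.6% rose. The pericentral markers summed to 8308 to 9988 CPM in oil and 1068 to 1834 CPM in CCl4. Periportal markers fell in 5 of 8 genes and rose in 1, and summed to 7006 to 12389 CPM in oil and 4753 to 7025 CPM in CCl4. General hepatocyte markers summed to 99672 to 138826 CPM in oil and 98044 to 147657 CPM in CCl4, and 1 of the 7 that were measured rose and 1 fell. The part of hepatocyte zones in the fall of Slc30a10 was not tested.

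Slc30a1 encodes the zinc exporter of the plasma membrane, ZnT1 (gene ID 22782, chromosome 1, 191906697 to 191913248). It was at 43.1, 48.5 and 61.4 CPM in the lowest, median and highest oil livers, and at 34.6, 40.9 and 51.0 CPM in CCl4. The groups overlapped, with 4 CCl4 livers below the lowest oil liver. The log2 fold change of -0.28 ± 0.13 (SE) did not pass (adjusted p = 0.0964). It passed without CCl4 replicate 5 (log2 fold change -0.37, adjusted p = 0.0322) and by DESeq2 (-0.31, adjusted p = 0.0479).

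Slc39a5 rose, from a low level. It encodes a zinc importer known from the basolateral side of intestinal and pancreatic cells (gene ID 72002, chromosome 10, 128395927 to 128401276). The oil livers ranged from 0.889 to 1.64 CPM with a median of 1.08 CPM, and the CCl4 livers from 1.38 to 2.65 CPM with a median of 2.25 CPM. In CCl4, 5 livers were above the highest oil liver, and replicate 3 was not. The rise was 1.85-fold, from 1.15 ± 0.269 to 2.13 ± 0.438 CPM (SD, n = 6 each; log2 fold change 0.89 ± 0.20 SE, adjusted p = 0.00321). It did not pass against a change of 1.5-fold (adjusted p = 0.120).

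Pancreatic and intestinal markers were measured beside it. The 8 acinar markers summed to 16.4 to 58.1 CPM in oil and 11.6 to 344 CPM in CCl4, highest in CCl4 replicate 5 (344 CPM) and replicate 3 (102 CPM), with Amy2a5 at 0 in every liver and neither of the 2 tested markers past the threshold. Cela1 had medians of 22.2 CPM in oil and 30.9 CPM in CCl4, beside medians of 23.5 and 34.6 CPM for the sum. Prss2, Cpa1 and Cel had medians of 0 in both groups, so that in most livers the sum was largely Cela1. Slc39a5 was at 2.26 CPM in CCl4 replicate 5 and at 1.38 CPM in replicate 3, the lowest of its group. It was at 2.24 CPM in CCl4 replicate 1, which had the lowest sum (11.6 CPM). The 8 intestinal markers summed to 39.1 to 77.8 CPM in oil and 34.7 to 100.1 CPM in CCl4, most of it Fabp2, with Sis at 0 in every liver; of 3 tested, Vil1 rose. Cholangiocyte markers rose in 4 of 7 tested genes, where 20.6% of all tested genes rose. The cholangiocyte list summed to 30.2 to 59.8 CPM in oil and 145 to 221 CPM in CCl4. Most of this sum was Spp1 (29.2 ± 4.96 CPM in oil and 148 ± 24.2 CPM in CCl4, SD, n = 6 each). Prom1 rose 20.7-fold, Tspan8 3.68-fold and Epcam 2.78-fold from lower levels, each without overlap between the groups. Krt19, Krt7 and Sox9 were not called (log2 fold changes of 0.05, 0.30 and 0.36). The part of pancreatic, intestinal or bile duct cells in the rise of Slc39a5 was not tested.

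Slc39a14, the hepatocyte importer of zinc, manganese and iron that inflammation is known to induce, had nearly the same mean in the 2 groups (gene ID 213053, chromosome 14, 70303467 to 70351452). Its lowest, median and highest values were 125, 202 and 357 CPM in oil and 164, 214 and 322 CPM in CCl4. The CCl4 livers all lay within the range of the oil livers. The log2 fold change was 0.03 ± 0.23 (SE; adjusted p = 0.939), with 219 ± 81.2 CPM in oil and 223 ± 56.3 CPM in CCl4 (SD, n = 6 each). The extremes in oil were replicate 1 at 125 CPM and replicate 6 at 357 CPM.

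Slc39a8, a close relative of Slc39a14 that recovers manganese from bile (gene ID 67547, chromosome 3, 135816882 to 135888572), was at 34.8 ± 5.66 CPM in oil and 27.7 ± 5.44 CPM in CCl4 (SD, n = 6 each). Oil livers ran from 30.3 to 44.4 CPM with a median of 32.4 CPM, and CCl4 livers from 20.9 to 33.3 CPM with a median of 29.2 CPM. Of the CCl4 livers 3 were below the lowest oil liver and 3 were among the oil livers. The log2 fold change of -0.33 ± 0.15 (SE) did not pass (adjusted p = 0.0989), but did when the model held each library's length slope (log2 fold change -0.56, adjusted p = 0.000550).

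Slc39a4, the zinc importer of the gut whose loss causes acrodermatitis enteropathica (gene ID 72027, chromosome 15, 76612383 to 76618506), was at 71.8 ± 13.8 CPM in oil and 61.9 ± 16.7 CPM in CCl4 (SD, n = 6 each). The lowest, median and highest values were 50.6, 77.0 and 83.4 CPM in oil and 45.2, 59.6 and 80.7 CPM in CCl4. The groups overlapped widely (log2 fold change -0.22 ± 0.19 SE, adjusted p = 0.372). The sign depended on the setting, at 0.040 when libraries were scaled by their totals alone and 0.050 when the model held each library's length slope.

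Of the 10 Slc30 genes 9 were tested, of which 1 rose, 1 fell and 7 did not pass, with a median log2 fold change of 0.03. Among all tested genes 39.0% were called, so that most genes did not pass either. Slc30a3, the zinc transporter of synaptic vesicles, rose 5.72-fold from 0.338 ± 0.129 to 1.96 ± 0.788 CPM (SD, n = 6 each; adjusted p = 4.81e-05), without overlap between the groups. Slc30a2, Slc30a4, Slc30a5, Slc30a6, Slc30a7 and Slc30a9, which serve vesicles, the Golgi and other compartments, had log2 fold changes between -0.05 (Slc30a5 and Slc30a9) and 0.24 (Slc30a4). Slc30a8, the transporter of insulin granules, had too few counts to be tested.

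Of the 14 Slc39 genes 13 were tested, of which 3 rose, 1 fell and 9 did not pass, with a median of 0.16. The 4 of 13 called was near the 39.0% of all tested genes. Beside Slc39a5, Slc39a11 rose 1.37-fold from 35.2 ± 0.808 to 48.3 ± 5.35 CPM (SD, n = 6 each; adjusted p = 0.00256), and all CCl4 livers lay above all oil livers. Slc39a6 rose from 3.27 ± 0.669 to 4.95 ± 1.40 CPM (adjusted p = 0.0300), but did not pass without CCl4 replicate 5 or without oil replicate 1, 2 or 4 (adjusted p of 0.0671 to 0.0714). Slc39a9, a transporter of the Golgi, fell 1.38-fold from 60.8 ± 5.28 to 44.1 ± 7.99 CPM (adjusted p = 0.0132), though not with upper-quartile scaling (adjusted p = 0.0556), scaling by totals alone (adjusted p = 0.339) or the length trend removed (adjusted p = 0.0560). Slc39a7, which releases zinc from the endoplasmic reticulum, was at 91.6 ± 14.0 CPM in oil and 107 ± 21.4 CPM in CCl4 (adjusted p = 0.242). Slc39a1, Slc39a2, Slc39a3, Slc39a10 and Slc39a13 had log2 fold changes between -0.02 and 0.18, and Slc39a12 had too few counts to be tested.

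**Figure D3:**
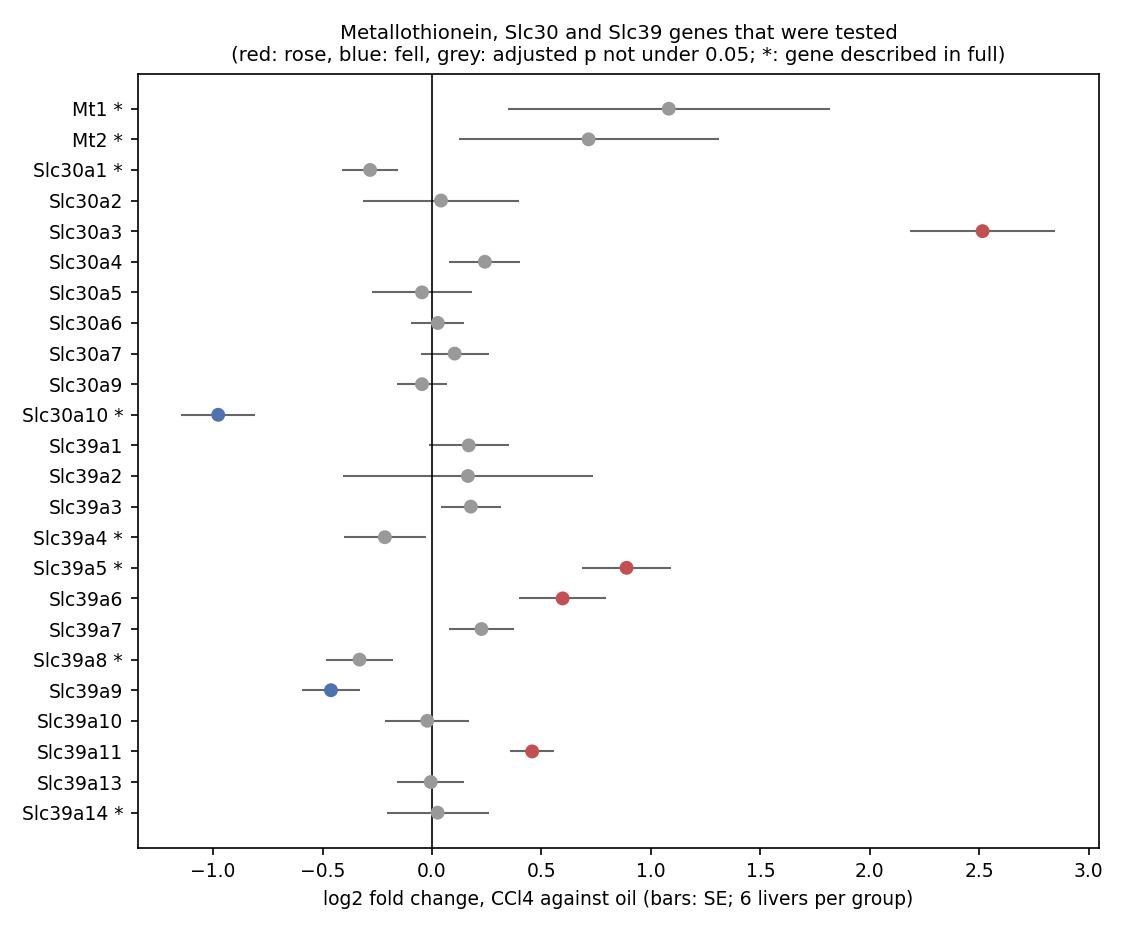
Log2 fold change of the 24 tested metallothionein, Slc30 and Slc39 genes, CCl4 against oil (horizontal axis; points, edgeR estimates; bars, SE; n = 6 livers per group). Slc30a3 lies farthest right at 2.51, Slc30a10 farthest left at -0.98, and Mt1 and Mt2 have the widest bars.

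None of the listed factors that act on metallothionein genes passed as a rise. Of 8 listed regulators none rose, 2 fell and 6 did not pass, where 20.6% of all tested genes rose and 18.4% fell. Their median log2 fold change was -0.31, and whether the list differs from other genes was not tested. Mtf1 was at 33.6 ± 8.36 CPM in oil and 43.1 ± 13.5 CPM in CCl4 (SD, n = 6 each; adjusted p = 0.169). The livers with most Mt1, oil replicate 5 and CCl4 replicate 6, had the highest Mtf1 of their groups at 50.05 and 68.7 CPM. The next highest Mtf1 in oil was in replicates 3 and 1, at 33.6 and 31.8 CPM, which had the least Mt1. Oil replicates 2 and 6, with more Mt1, had 26.8 and 30.2 CPM. In CCl4 the orders were closer: replicate 1 was lowest in both genes. CCl4 replicates 2 and 4 followed replicate 6 in both, with Mtf1 at 45.26 and 40.98 CPM. Replicate 4 had more Mt1 than replicate 2 but less Mtf1, and replicate 5 stood likewise to replicate 3. The relation of Mtf1 to Mt1 was not tested. Nr3c1, the glucocorticoid receptor, fell 1.33-fold (adjusted p = 0.0140) and Usf2, a factor that binds E-boxes, fell 1.23-fold (adjusted p = 0.0424). Of 7 other genes that MTF1 is known to act on, 6 were tested, of which 2 rose, 1 fell and 3 did not pass (39.0% of all tested genes were called; median 0.72). Csrp1 rose 3.73-fold, Ndrg1 rose 2.17-fold and Gclc, a gene of glutathione synthesis, fell 2.23-fold. Csrp1 is also a gene of smooth muscle and stellate cells, whose activated markers rose in 8 of 8 genes, with sums of 58.4 to 131 CPM in oil and 482 to 774 CPM in CCl4.

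Of 10 glucocorticoid-responsive genes 6 fell, 2 rose and 2 did not pass, where 18.4% of all tested genes fell and 20.6% rose. The median log2 fold change was -0.75, and whether the list differs from other genes was not tested. Klf9 fell 3.19-fold and Errfi1 1.80-fold, while Cdkn1a rose 2.32-fold and Lcn2, counted above, 5.68-fold. These genes also respond to other signals, Cdkn1a to p53. Their sum was 1446 CPM in oil replicate 5, the oil liver with most metallothionein, and 1779 to 2165 CPM in the other 5 oil livers. In CCl4 it was 1314 to 1452 CPM. Most of this sum was 1 gene, Errfi1 (1394 ± 256 CPM in oil and 776 ± 113 CPM in CCl4, SD, n = 6 each).

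Of 7 further tested genes of manganese and iron transport 5 fell, none rose and 2 did not pass, with a median of -0.30, beside the 18.4% of all tested genes that fell. Whether the list differs from other genes was not tested. Tfr2, a sensor of iron-loaded transferrin, fell 1.73-fold (adjusted p = 0.00408) and Slc25a37, the mitochondrial iron importer, fell 1.89-fold (adjusted p = 0.00680). The other 3, Atp2c1, Slc25a28 and Slc11a2, were close to the threshold, with adjusted p of 0.0379, 0.0483 and 0.0488. Of 12 copper genes 3 fell, 1 rose and 8 did not pass, with a median of -0.07; 4 of 12 called was near the 39.0% of all tested genes. Slc31a1, the copper importer, fell 1.43-fold from 260 ± 12.8 to 181 ± 14.2 CPM, Sco2, which delivers copper to cytochrome oxidase, fell 1.90-fold, and Cp, the secreted copper protein ceruloplasmin, rose 1.52-fold. Of 10 antioxidant genes under NRF2, a factor that also acts on metallothionein genes, 6 rose, 3 fell and 1 did not pass, with a median of 0.68, where 20.6% of all tested genes rose and 18.4% fell. Srxn1, sulfiredoxin, rose 2.72-fold. Gsta1, which has close copies that may share its reads, rose from 1.43 ± 1.06 to 18.1 ± 4.53 CPM. Gclc and Gclm, genes of glutathione synthesis, fell.

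Within each group Mt1 and Mt2 varied together from liver to liver. Pearson's r of log2 CPM was 0.96 in oil and 0.96 in CCl4, and Spearman's rho 1 and 0.94 (n = 6 each; exact permutation p = 0.00278 and 0.00556 for r, and 0.00278 and 0.0167 for rho). Without the 2 livers farthest from the median of Mt1, r was 1 and 0.88. Over 72 relations, of which 56 were pairs of the genes within a group and 16 were relations to the length slope, no adjusted p was below 0.0857 for r or 0.100 for rho, and a raw p of 0.00278 is the smallest that 6 livers can give. Slc39a4 and Slc39a8 went opposite ways in both groups, with r of -0.99 in oil and -0.97 in CCl4 and rho of -0.94 in both (exact permutation p = 0.00833 for r and 0.0167 for rho in each group, adjusted p = 0.0857 and 0.150), and r of -0.90 and -0.98 without the 2 farthest livers. In CCl4, Slc30a10 was lower where Mt1 was higher (r = -0.94, rho = -1, exact permutation p = 0.00278 for both, adjusted p = 0.0857 and 0.100; r = -0.93 without the 2 farthest livers). In oil these 2 genes had r = 0.70 and rho = 0.60 (exact permutation p = 0.128 and 0.242, adjusted p = 0.354 and 0.544; r = 0.69 without the 2 farthest), and the difference between the groups was not tested.

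The slope of log2 CPM on transcript length, a measure of library composition, moved with several of these genes in CCl4. Its Pearson's r was -0.80 with Mt1, 0.78 with Slc30a10, 0.80 with Slc39a4, -0.85 with Slc39a8 and 0.87 with Slc39a14, with Spearman's rho of -0.77, 0.77, 0.83, -0.89 and 0.89 (n = 6; exact permutation p for r of 0.0583, 0.0611, 0.111, 0.0389 and 0.0167, and adjusted p of 0.271, 0.271, 0.342, 0.271 and 0.150). Without the 2 livers farthest from the median slope, r was -0.88, 0.98, 0.60, -0.72 and 0.81. In oil r was -0.64, -0.26, 0.78, -0.76 and 0.02 in the same order, and none of these had an exact permutation p below 0.0944. The part of library composition in the relations between genes was not tested.

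By the same measure of likeness over the 12 livers, with group means removed and no test, Trim24 and Lrrc8a varied most like Slc30a1 (r = 0.94 and 0.92), and Rnf144b and Nelfa most like Slc30a10 (0.96 and 0.88). Galns and Tyw1 varied most like Slc39a4 (0.97 and 0.96), Atad3a and Ctsf most like Slc39a5 (0.89 and 0.87), Fbxo33 and Borcs7 most like Slc39a8 (0.97 for both), and Shb and Adgrl2 most like Slc39a14 (0.93 and 0.90). Of these 12 genes Rnf144b, Nelfa, Atad3a and Ctsf fell after CCl4 and Galns rose (edgeR adjusted p of 0.000825 to 0.0332). This is near the 39.0% of all tested genes that were called.

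**Figure D4:**
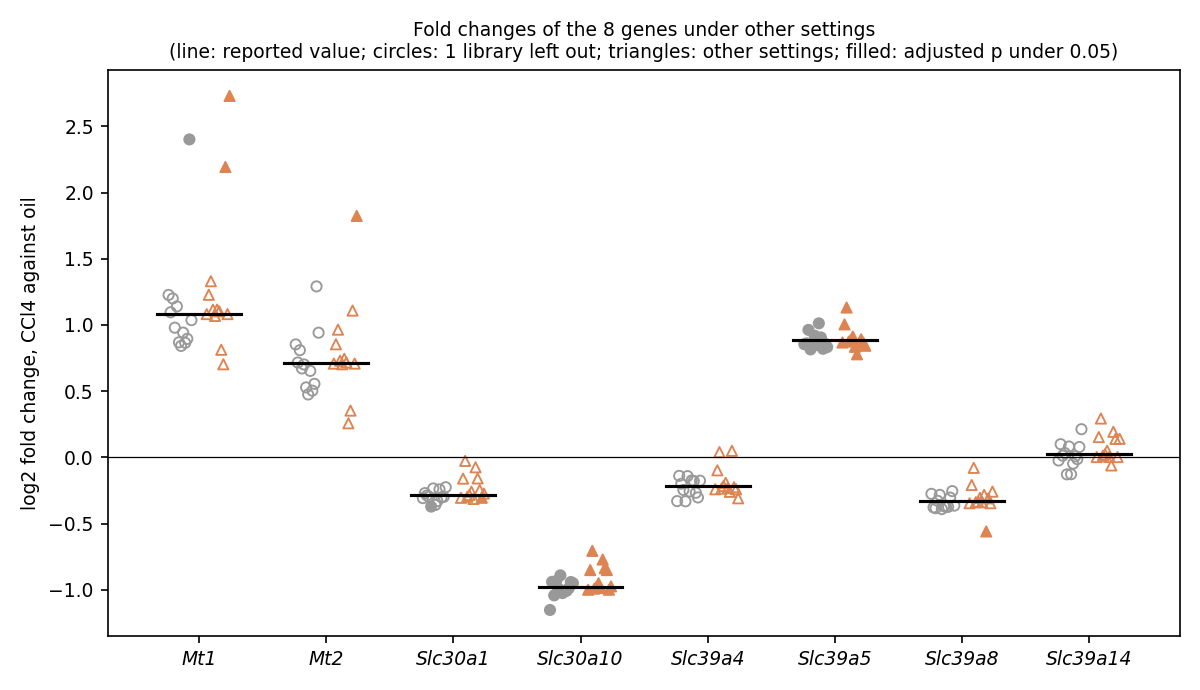
Log2 fold change of each of the 8 genes under other settings (vertical axis; black line, reported value; circles, 1 library left out; triangles, other scaling, filters, tools or length corrections; filled where the adjusted p was under 0.05). The test against 1.5-fold is not drawn; in the settings that are, Slc30a10 and Slc39a5 stay filled, and Mt1 reaches 2.40 without oil replicate 5.

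Libraries held 43027778 to 70375852 counts. Macrophage markers rose in 6 of 8 genes, and of 8 endothelial markers 2 rose and 2 fell. Over all tested genes 20.6% rose and 18.4% fell. Skeletal muscle markers summed to 278 CPM in CCl4 replicate 1 and 51.0 CPM in CCl4 replicate 3 and to at most 1.63 CPM in the other libraries. Without either of these libraries the 8 genes kept the calls given above. The division of all calls depended on scaling: 52.8% of them were rises with the scaling used, 67.3% with upper-quartile scaling and 80.7% with library totals alone. The median log2 fold change over all genes was 0.13 and 0.27 with the last 2 of these.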

How the data were processed

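RNA-seq counts of 12 mouse livers were used. Per the labels' protocols, the library kit was for total RNA and kept strand. What the authors deposited were whole-number read counts per gene, not normalised, and all 12 library files equalled the series table. The genome build was GRCm38, per the submitters' processing notes; for the aligner, the counter and use of strand the sources used here say nothing. Names and coordinates came from RefSeq GRCm38.p6 (31127 of 36528 IDs named, some through GENCODE M21), and transcript length was the median over GENCODE M21 basic transcripts (86.6% of tested genes).

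After filterByExpr and TMM scaling, edgeR 4.0.16 in R 4.3.3 compared the groups by its robust quasi-likelihood test, with Benjamini-Hochberg adjustment over 16032 genes and a threshold of 0.05. The SE was the log2 fold change divided by the square root of F. Log2 CPM had a prior count of 2. Single values and correlations had exact two-sided permutation tests, 924 arrangements for groups. The genes and lists were chosen with earlier results of these data known. Named genes were the 8, all other Mt, Slc30 and Slc39 genes, up to 2 genes per list and direction with the smallest p, and the genes most like each. Alternatives used other scaling, filters, thinning, length corrections, DESeq2 1.42.0, limma-voom (limma 3.58.1) and each library left out. Relations to the length slope were added after the values were seen. Scripts were tested on simulated data.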

Additional observations from a re-analysis of the deposited data

Results flagged for a closer look

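Mt1 in oil replicate 5, at 1352 CPM, and the share of counts taken by Mt1 and Mt2 in the same library, at 0.152%, stood apart from the other 5 oil livers: the gap to the next liver was 0.797 and 0.702 of the whole range of the group, above the critical value of 0.625 for 6 samples. Both values come largely from the same counts. The gaps were taken on CPM and percent as they are, not on the log2 scale, where the single high oil liver weighs less. The mark on oil replicate 5 therefore applies to the unlogged values only, and the gap test was not run on log2 values. Chance alone marks about 1 in 20 groups, and 20 groups were examined.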

How the results depend on the processing

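No paired analysis was possible because the labels give the groups no shared replicate numbers. Slc30a10 and Slc39a5 kept direction and call in every setting but the test against 1.5-fold for Slc39a5 (log2 fold change 0.89, adjusted p = 0.120). Mt1 was called without CCl4 replicate 6 and oil replicate 5 together, the libraries with most short transcripts in their groups (2.19), and with limma-voom (2.73), which also called Mt2 (1.82); leaving out 1 library gave 0.84 to 2.40 for Mt1 and 0.47 to 1.29 for Mt2. Slc39a8 was called with the length slope in the model (-0.56; 1 library left out, -0.39 to -0.25), and Slc30a1 with DESeq2 (-0.31; 1 library left out, -0.37 to -0.23). Slc39a4 reversed with library totals alone (0.040) and the length slope (0.050), and Slc39a14 with the length trend removed (-0.061) and with any of 5 libraries left out (CCl4 replicates 1 and 5, oil replicates 1, 2 and 4), for a range of -0.13 to 0.21 over libraries left out. Of the 8 genes, rises numbered 2 without the short-rich libraries and 3 with limma-voom, and falls 2 with the length slope and with DESeq2; with 1 library left out there were 1 to 2 of each. Rises among Slc30 genes numbered 2 with library totals alone, the length trend removed and limma-voom, and falls 2 with DESeq2 (1 to 2 with 1 library left out). Among Slc39 genes 5 rose with library totals alone, and falls numbered 0 with upper-quartile scaling, library totals alone and the length trend removed, and 2 with the length slope. Library totals alone called 5470 genes higher and 1308 lower, against 3305 and 2951. The log2 difference in metallothionein share was 1.63 to 2.70 with 1 library left out. The cause of these changes was not tested. Depth limits Mt3, Mt4, Slc30a8 and Slc39a12, which had too few counts.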
